A study of Homo sapiens with 4 samples.

Results

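The RNAs of ABCC1, ABCC4 and ABCC5 were followed across the genome in K562 cells, an established line from human chronic myeloid leukaemia. They were taken by the symbol of the RNA and make up 3 of 2637 RNAs and 123 of 115357 connections in a table of GRID-seq contacts. GRID-seq ligates an RNA to the chromatin beside it inside fixed nuclei. The table lists only contacts with active enhancers and promoters, so each connection joins an RNA to such an element. Cells with the RUNX1 R320* change (2 libraries), which ends this transcription factor of blood cells early, were set against cells with wild-type RUNX1 (WT, 2 libraries). Cells of all 4 libraries were crosslinked first by DSG (2 mM, 45 minutes) and next by formaldehyde (3%, 10 minutes). The labels leave unsaid how the R320* line was made, whether it is a single clone, and whether both libraries of each genotype are separate cultures.

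The ABCC1, ABCC4 and ABCC5 proteins are membrane pumps that use ATP to move organic anions out of the cell. ABCC1 (also called MRP1) exports glutathione conjugates, cysteinyl leukotrienes and several anticancer drugs. ABCC4 (MRP4) exports cyclic nucleotides and prostaglandins, and ABCC5 (MRP5) exports cyclic nucleotides and nucleotide analogues. A nascent RNA stays close to the gene that made it, so its contacts with enhancers and promoters mostly report which chromatin lies near that gene.

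The authors gave each connection 1 score per genotype and none per library. A score is either 0 or at least 1.2, and 0 is read here as not listed. No scale for the score is given in the sources used here, so scores are compared by differences and never by ratios. Single scores per genotype leave no replicate spread and no test, sequencing depth is unknown, and intervals below cover only the counting of connections. In bulk libraries, fewer cells with a contact and fewer contacts per cell cannot be told apart. Of 10 markers set for K562, HBG2, HBE1, TFRC, BCR and ABL1 were listed as RNAs, while 0 of 7 markers of other cell types were listed. The deposited table holds contacts, not RNA levels.

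ABCC1 (ENSG00000103222.19) lies on chromosome 16 at 15949143 to 16143053, ABCC4 (ENSG00000125257.16) on chromosome 13 at 95019835 to 95301451, and ABCC5 (ENSG00000114770.17) on chromosome 3 at 183919934 to 184017884 (hg38). ABCC1 RNA had 19 connections in R320* and 22 in WT, of which 13 were in both. ABCC4 RNA had 36 in R320* and 36 in WT, with 27 in both, and ABCC5 RNA had 47 in R320* and 41 in WT, with 38 in both. All 3 belong to the 2137 RNAs (81.0%) listed in both genotypes, over which the median was 30.0 connections in R320* and 28.0 in WT. The log2 ratios of R320* over WT were -0.21 for ABCC1 (95% interval -1.18 to 0.74), 0.00 for ABCC4 (-0.71 to 0.71) and 0.20 for ABCC5 (-0.44 to 0.84). ABCC5 was thus among the 58.2% of those RNAs with more connections in R320* and ABCC1 among the 33.6% with fewer. All the intervals include 0, and 0 of the 3 RNAs reached a 2-fold difference. These intervals treat the numbers of the genotypes as independent, although connections in both genotypes enter both numbers. Among the 1293 genes that averaged 25 or more connections over the genotypes, 0.619% had at least 2-fold more in R320* and 0.619% at least 2-fold fewer. ABCC1, which averaged below 25, was not among those 1293.

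**Figure D1:**
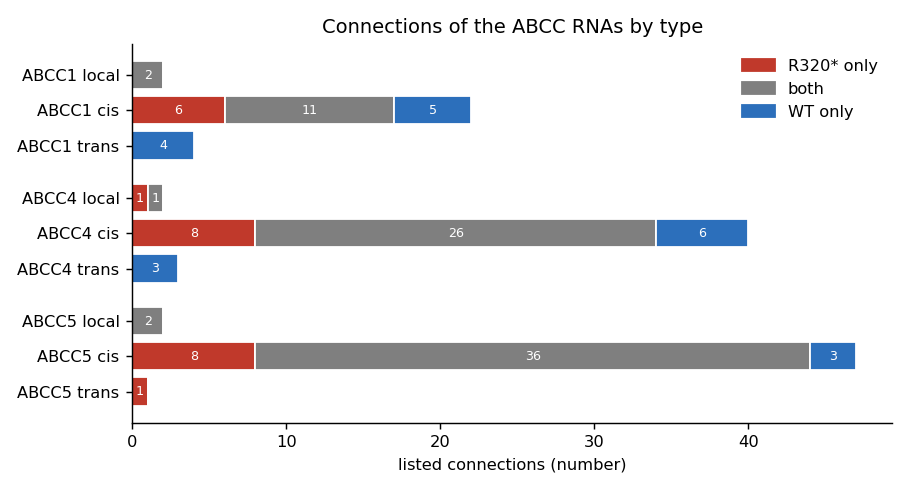
Number of listed connections of each ABCC RNA (horizontal axis), split by type (local, at the RNA's own gene; cis, elsewhere on its chromosome; trans, on another chromosome) and by genotype (red, R320* only; grey, both; blue, WT only). The grey part is the largest in the cis bars of all 3 RNAs, and no trans bar has a grey part.

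The 3 RNAs, whose genes lie on different chromosomes and which met mostly elements of their own chromosome, shared 0 elements with each other. For each RNA, a share of the contact list was found in both genotypes. This share was 76.0% for ABCC5 (95% Clopper-Pearson interval 61.8 to 86.9), 60.0% for ABCC4 (44.3 to 74.3) and 46.4% for ABCC1 (27.5 to 66.1), against 45.2% in the whole table. The intervals of all 3 overlap. Among cis connections it was 36 of 47 for ABCC5, 26 of 40 for ABCC4 and 11 of 22 for ABCC1, against 51.4% in the table. Of the 123 connections, 24 were in R320* only and 21 in WT only, where the table had 28.5% in R320* only and 26.3% in WT only. These shares go with distance: 80.5% of connections under 100 kb, 61.1% from 100 kb to 1 Mb and 27.0% beyond were in both genotypes over all RNAs. Within those bins ABCC5 had 8 of 8, 30 of 39 and 0 of 2 in both, ABCC4 had 7 of 8, 12 of 15 and 8 of 19, and ABCC1 had 7 of 8, 5 of 8 and 1 of 8. The table-wide share lies inside the interval of every one of these bins. It comes nearest to a bound for ABCC5 from 100 kb to 1 Mb, where 76.9% were in both (60.7 to 88.9).

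At the genes themselves each RNA met its own promoter and an enhancer inside the gene, though the ABCC4 promoter was listed in R320* only. ABCC5 RNA met its promoter (184014851 to 184019933) with a score of 2.44 in R320* and 2.48 in WT, and an enhancer inside the gene (183975527 to 183977832) with 2.57 in R320* and 2.64 in WT. ABCC1 RNA met its promoter (15948802 to 15951984) with 1.44 in R320* and 1.34 in WT, and an inner enhancer (15987271 to 15991524) with 1.91 in R320* and 1.86 in WT. ABCC4 RNA met an inner enhancer (95207437 to 95210091) with 1.95 in R320* and 1.81 in WT. Its promoter (95299206 to 95302498) scored 1.30 in R320* and was not listed in WT. That value lies near the minimum of the table. Of the 6 local connections 5 were found in both R320* and WT, where the share over all RNAs was 81.1%.

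The promoters of ABCC4 and ABCC5 are shown, the only ones of the 3 with a window available. At its own promoter, ABCC5 RNA had the highest and ABCC4 RNA the lowest score of the 3. Each window runs from 250 bases before to 50 bases after the gene's start, on the minus strand, and lies within the promoter element named above. The ABCC4 window is chr13:95301402-95301701 and the ABCC5 window chr3:184017835-184018134 (GRCh38.p14, RefSeq). Capitals mark the word TATAAA and the GC box word GGGCGG, which reads CCGCCC where it lies on the other strand.
ABCC4: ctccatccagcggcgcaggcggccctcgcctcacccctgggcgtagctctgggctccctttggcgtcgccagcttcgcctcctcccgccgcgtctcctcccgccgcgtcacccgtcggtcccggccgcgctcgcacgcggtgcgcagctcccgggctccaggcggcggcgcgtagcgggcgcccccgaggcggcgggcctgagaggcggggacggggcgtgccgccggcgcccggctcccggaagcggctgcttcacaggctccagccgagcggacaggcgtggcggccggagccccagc
ABCC5: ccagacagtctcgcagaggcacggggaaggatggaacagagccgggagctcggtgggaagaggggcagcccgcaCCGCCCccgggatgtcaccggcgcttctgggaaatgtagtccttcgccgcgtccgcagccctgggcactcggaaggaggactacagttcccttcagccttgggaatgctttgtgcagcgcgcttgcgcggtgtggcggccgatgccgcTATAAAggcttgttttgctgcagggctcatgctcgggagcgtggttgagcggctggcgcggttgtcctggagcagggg
The ABCC5 window holds 1 TATAAA, at bases 223 to 228, upstream of the gene's start, and 1 GGGCGG on the other strand. The ABCC4 window holds 0 of either, and its GC content is 79.7%, against 65.7% for ABCC5 and a median of 58.7% over 35116 promoter windows. TATAAA occurs in 11.5% and GGGCGG in 45.0% of those windows, either strand counted. For RUNX the word TGTGGT or its variant TGCGGT occurs in 19.6% of them. For GATA factors the search took the word AGATAA, the variant AGATAG, and likewise the word TGATAA with the variant TGATAG, which together occur in 25%. Both windows hold 0 of the RUNX words and 0 of the GATA words, which says only that these letters are not in these windows. The words searched do not overlap in either window. Of the 3 genes, 2 had a promoter window in the RefSeq table, and ABCC1 had none.

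ABCC5 RNA kept to its own neighbourhood. All but 1 of its 50 connections lay on chromosome 3, at a median distance of 281 kb in R320* and 290 kb in WT, and at most 1120 kb in R320* and 728 kb in WT from the gene. Over all RNAs with a known position, the median distance was 411 kb in R320* and 371 kb in WT. On the higher-coordinate side of ABCC5, 26 of 27 connections were in both genotypes, and on the lower-coordinate side 10 of 20. The highest cis scores were around EIF2B5, a translation initiation factor gene, DVL3, a Wnt pathway gene, and AP2M1, an endocytic adaptor gene. There 7 elements at 110 to 165 kb scored 2.22 to 2.72 in R320* and 2.16 to 2.56 in WT. The highest of them by mean score was an enhancer at DVL3 (184160244 to 184161027), with 2.72 in R320* and 2.56 in WT. The DVL3 promoter had 2.62 in R320* and 2.54 in WT, and an EIF2B5 enhancer 2.64 in R320* and 2.5 in WT.

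The scores of ABCC5 RNA ran higher in R320* over much of this region. Of its 38 connections in both genotypes, 28 scored higher in R320* and 10 lower, where 58.6% of all such connections in the table were higher. The median difference (R320* minus WT) was 0.158 (SD 0.189 over connections), against 0.0394 (SD 0.247) in the table. It lay above that of 93.8% of the 1765 RNAs with at least 10 such connections. From 100 kb to 1 Mb, where the table had 60.1% higher and a median of 0.0577, ABCC5 had 23 of 30 higher and a median of 0.161 (SD 0.202). Neighbouring elements are not independent. An enhancer at LINC02069 and one at AC107294.2, for example, carried the same scores (1.76 in R320*, 1.54 in WT). The deposited table lists its elements in a first and a second run of chromosomes, and what separates these runs is unknown. With the first run alone the ABCC5 median was 0.0908.

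Many of the larger differences of ABCC5 RNA lay side by side. At THPO, the gene of the platelet growth factor thrombopoietin, the promoter scored 2.5 in R320* and 2.14 in WT, and an enhancer 2.16 in R320* and 1.73 in WT. All 4 elements from VWA5B2 to CAMK2N2 differed by 0.249 to 0.268 upward in R320*. At KLHL24, a ubiquitin ligase adaptor gene on the other side of ABCC5, all 4 elements in both genotypes were higher in R320*, by 0.160 to 0.559. The largest of these was an enhancer (183629465 to 183630216) with 2.24 in R320* and 1.68 in WT, and the KLHL24 promoter beside it was listed in R320* only (1.91). Single elements were also higher, the MCF2L2 promoter with 2.02 in R320* and 1.69 in WT and an enhancer by HTR3E-AS1 with 2.36 in R320* and 2.09 in WT. By contrast, elements at EIF4G1 and inside ABCC5 differed by less than 0.1, and a KLHL6 enhancer was lower in R320*, at 1.36 against 1.89 in WT. Nearer to ABCC5, a KLHL6 promoter (1.43) and a further enhancer (1.24) were in WT only. At YEATS2, a subunit gene of a histone acetyltransferase complex, 3 elements were in R320* only, at 1.22 to 1.42.

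**Figure D2:**
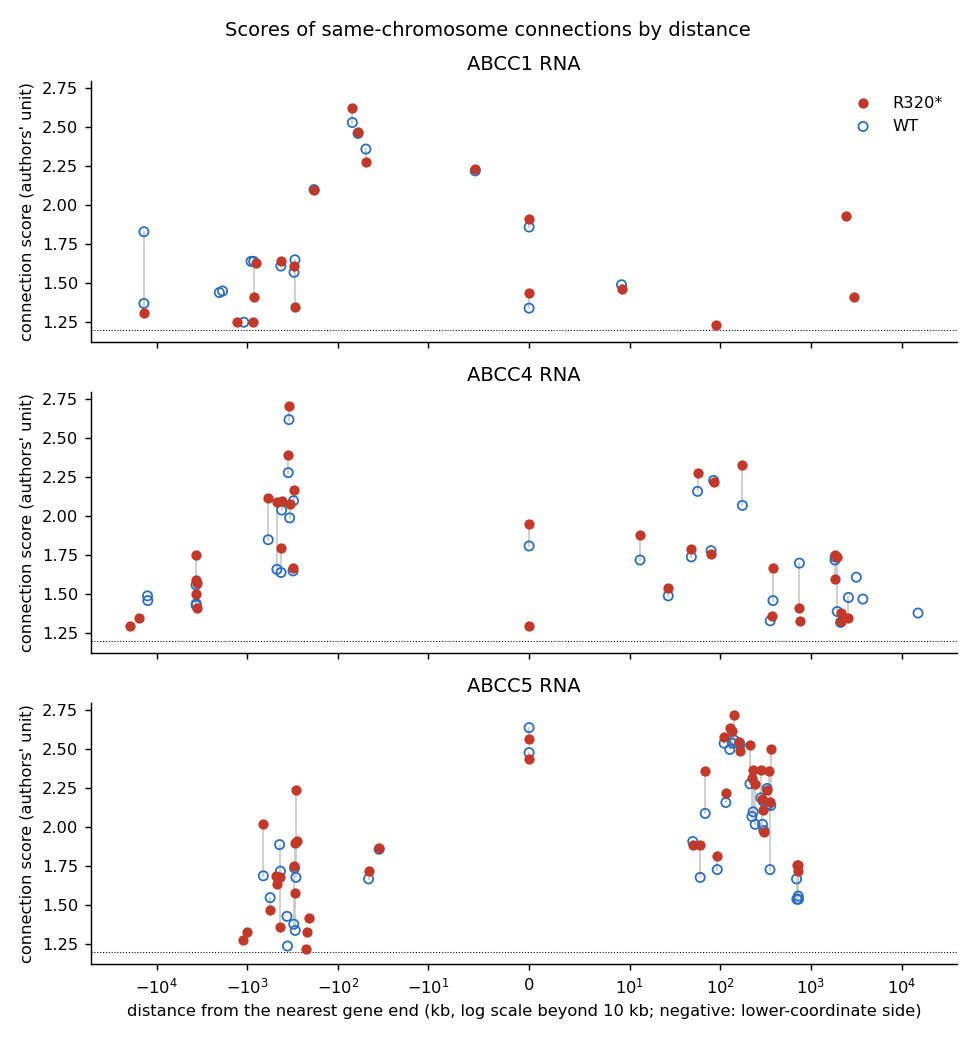
Score (authors' unit, vertical axis) of each same-chromosome connection against its distance from the nearest gene end (kb, log scale beyond 10 kb), with R320* as filled red points, WT as open blue circles and grey lines joining the same connection. The dotted line is the minimum of 1.2. ABCC5 RNA has its high scores on the higher-coordinate side, ABCC1 RNA on the lower-coordinate side, and ABCC4 RNA on both.

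The 3 RNAs most like ABCC5 in the elements they met came from chromosome 3 as well. YEATS2 RNA shared 43 elements with it (Jaccard overlap 0.68; 86.0% of the ABCC5 and 76.8% of the YEATS2 list, either genotype), ATP11B 25 (0.35) and VPS8 10 (0.14). The genes lie 107, 998 and 794 kb from ABCC5. At the 25 elements that ABCC5 and YEATS2 RNA both met in both genotypes, the median difference was 0.148 for ABCC5 (17 of 25 higher in R320*) and -0.0347 for YEATS2 (12 of 25 higher). The paired gap between the RNAs had a median of 0.108 (SD 0.348 over elements). At the THPO enhancer and both VWA5B2 elements the 2 RNAs were higher in R320*, the THPO enhancer having 1.82 in R320* and 1.34 in WT for YEATS2. At DVL3 and AP2M1 they differed. YEATS2 RNA had 1.81 in R320* and 2.37 in WT at the DVL3 promoter, and 1.79 in R320* and 2.31 in WT at the AP2M1 enhancer, where ABCC5 RNA had 2.55 in R320* and 2.54 in WT. At the 9 elements that ABCC5 and ATP11B RNA shared, the median difference was 0.0746 for ABCC5 and 0.112 for ATP11B.

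**Figure D3:**
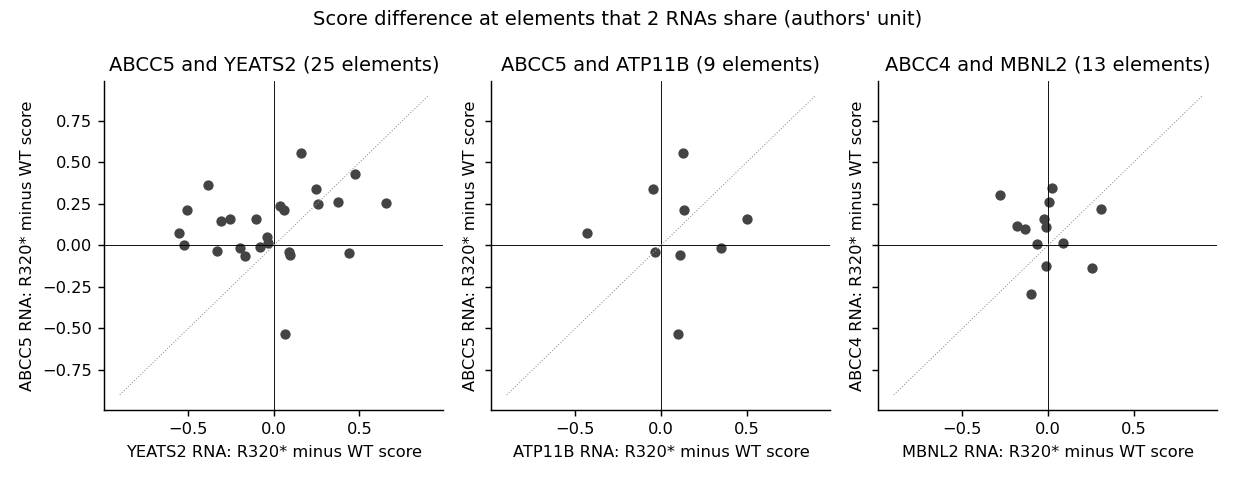
Score difference (R320* minus WT, authors' unit) of ABCC5 or ABCC4 RNA (vertical) against that of a neighbouring RNA (horizontal) at elements both RNAs met in both genotypes; each point is 1 element and the dotted line marks equal differences. Above the horizontal zero line lie 17 of 25 points for ABCC5 against YEATS2, 5 of 9 against ATP11B and 10 of 13 for ABCC4 against MBNL2.

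ABCC4 RNA reached farther along its chromosome than ABCC5 RNA, though its median distances were near those over all RNAs (411 kb in R320*, 371 kb in WT). Its 42 connections on chromosome 13 lay at a median of 446 kb in R320* and 423 kb in WT, and at up to 19.6 Mb in R320* and 15.2 Mb in WT. The high scores lay on both sides of the gene. On the lower-coordinate side, an enhancer by LINC00391 (94673923 to 94674131, 346 kb away) had 2.71 in R320* and 2.62 in WT, and a wide enhancer by GPR180 (94655268 to 94667793) had 2.39 in R320* and 2.28 in WT. On the other side, 3 enhancers nearest CLDN10, a tight junction gene, had 1.76, 2.22 and 2.33 in R320* and 1.78, 2.23 and 2.07 in WT. All 4 enhancers between the ABCC4 gene and these, at most 56.0 kb away, were listed in both genotypes, with the highest at 2.28 in R320* and 2.16 in WT.

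Of 27 connections of ABCC4 RNA in both genotypes, 21 were higher in R320* and 6 lower, beside the 58.6% higher in the table. The median difference was 0.0913 (SD 0.156), which exceeded that of 75.8% of the 1765 RNAs. It was 0.154 with the first and 0.0471 with the second run of elements alone, and 0.0519 after subtracting the table's median. The largest upward difference was at an enhancer by TGDS (94548413 to 94550091), with 2.09 in R320* and 1.66 in WT. An enhancer nearest MBNL2, a splicing factor gene, followed with 1.74 in R320* and 1.39 in WT. The largest downward one was at an enhancer of UGGT2, a glycoprotein folding sensor gene, with 1.41 in R320* and 1.70 in WT. The only RNA with at least 10 elements in common with ABCC4 was that of MBNL2, whose gene lies 1840 kb away (25 elements, Jaccard 0.32; 55.6% of the ABCC4 and 43.9% of the MBNL2 list). At the 13 elements both met in both genotypes, the median difference was 0.111 for ABCC4 and -0.0139 for MBNL2, with a paired gap of 0.122 (SD 0.261).

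As far as 3.67 Mb from its gene, ABCC4 RNA met the locus of MIR17HG, the host transcript of the oncogenic miR-17-92 microRNA cluster. The MIR17HG promoter scored 1.5 in R320* and 1.56 in WT, and the enhancers beside it 1.59 and 1.75 in R320* and 1.43 and 1.44 in WT. Next to them a promoter and an enhancer of GPC5 were in R320* only (1.41 and 1.57). These are crowded elements: the MIR17HG promoter met 21 other RNAs in R320* and 14 in WT, of which 6 in R320* and 7 in WT came from chromosome 22 and 2 in each from chromosome 9, while 4 in R320* and 0 in WT came from chromosome 13 itself. At the elements that ABCC4 RNA met on chromosome 13 in both genotypes, other RNAs had 85 connections in R320* and 60 in WT. The 3 elements at MIR17HG held most of them. At the elements that ABCC5 RNA met in both genotypes, other RNAs had 72 connections in R320* and 70 in WT. For ABCC1 these numbers were 7 and 6, and the whole table had 84992 connections in R320* and 82454 in WT.

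ABCC1 RNA met mainly the stretch on the lower-coordinate side of its gene. Its same-chromosome connections lay at a median of 297 kb in R320* and 301 kb in WT, and at up to 13.8 Mb in each. Its highest same-chromosome scores were at FOPNL, a centrosome protein gene, where 2 enhancers and the promoter had 2.62, 2.28 and 2.47 in R320* and 2.53, 2.36 and 2.46 in WT. An enhancer 5.35 kb from the gene had 2.23 in R320* and 2.22 in WT, and one in MYH11, the smooth muscle myosin gene, 2.10 in both genotypes. On the other side it met an enhancer nearest ABCC6, the adjoining gene of the same family, with 1.46 in R320* and 1.49 in WT. Of the 13 connections in both genotypes 7 were higher in R320* and 6 lower, with a median difference of 0.0112 (SD 0.182).

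The largest difference of ABCC1 RNA was at its farthest element, an enhancer by PKD1 13.8 Mb away, with 1.31 in R320* and 1.83 in WT. The PKD1 promoter was in WT only (1.37). An enhancer of NDE1 had 1.35 in R320* and 1.65 in WT. Promoters of NOMO2 (1.93) and NOMO3 (1.23) were in R320* only and an enhancer of NOMO1 (1.25) in WT only. PKD1 has near-identical pseudogenes close to ABCC1, and the NOMO genes are near-identical copies of each other, so reads there may be assigned to the wrong copy and these values are uncertain.

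**Figure D4:**
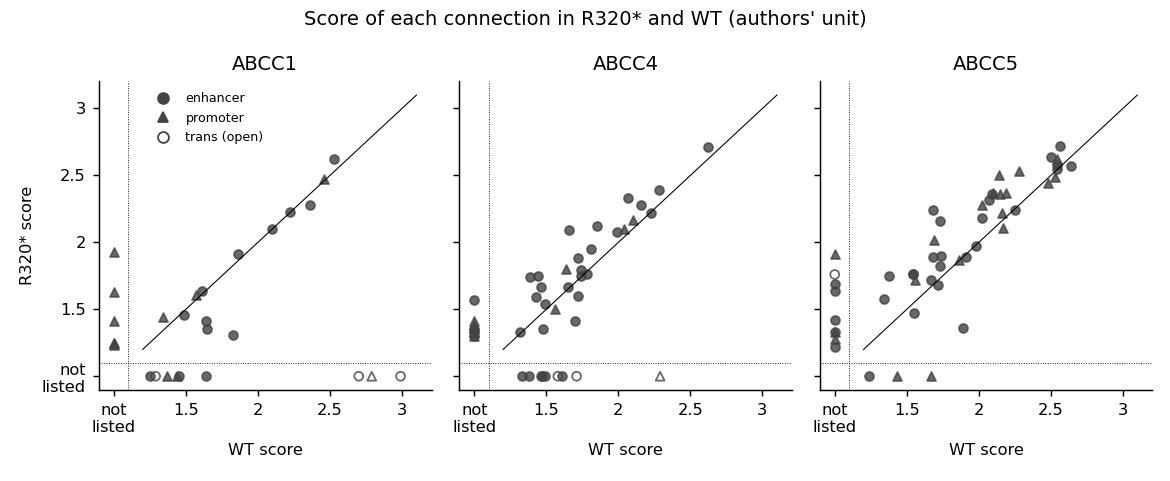
R320* score (vertical) against WT score (horizontal), both in the authors' unit, for each connection of the 3 RNAs, with circles for enhancers, triangles for promoters and open symbols for trans contacts; points beyond the dotted lines were not listed in that genotype and the diagonal marks equal scores. Scores in both genotypes lie close to the diagonal, with more ABCC4 and ABCC5 points above it than below, and every trans contact lies in a strip of 1 genotype.

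No connection of the 3 RNAs in both genotypes differed by 1 unit. Among all connections in both genotypes, 0.0998% were at least 1 unit higher and 0.0749% at least 1 unit lower in R320*. At 0.5 unit, 1 of the 78 was higher (ABCC5 at KLHL24) and 2 were lower (ABCC5 at KLHL6, ABCC1 at PKD1), where the table had 3.55% higher and 2.07% lower. Most same-chromosome connections listed in 1 genotype had scores near the minimum. For ABCC1, 4 of 6 in R320* only and 4 of 5 in WT only were below 1.5; for ABCC4, 8 of 9 in R320* only and 5 of 6 in WT only; for ABCC5, 5 of 8 in R320* only and 2 of 3 in WT only.

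Promoters were 47.4% of ABCC1 connections in R320* and 27.3% in WT; for ABCC4 they were 25% in R320* and 13.9% in WT, and for ABCC5 36.2% in R320* and 39.0% in WT, where the table had 34.2% in R320* and 33.6% in WT. All 6 ABCC1 connections in R320* only were to promoters, those of BFAR, RRN3, AC126763.1, NOMO3, NOMO2 and ITPRIPL2, against 3 of 9 in WT only. For ABCC4 these numbers were 5 of 9 in R320* only and 1 of 9 in WT only, while for ABCC5 they were 3 of 9 in R320* only and 2 of 3 in WT only. Over the 3 RNAs promoters were 58.3% of 24 connections in R320* only (36.6 to 77.9) and 28.6% of 21 in WT only (11.3 to 52.2). In the table the shares were 34.9% in R320* only and 33.3% in WT only. The intervals of the ABCC shares overlap each other, and the pattern was picked out after the values were seen. These shares include the promoters of NOMO2, NOMO3 and PKD1, where reads may be assigned to the wrong copy.

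Contacts on other chromosomes were few and none was shared. ABCC1 RNA had 4 and ABCC4 RNA 3, all in WT only, and ABCC5 RNA 1, in R320* only, where 11.5% of trans connections in the table were in both genotypes. The ABCC1 contacts lay close together on chromosome 1. Those described here were a promoter (228163757 to 228167115) and 2 enhancers nearest IBA57, a gene of mitochondrial iron-sulphur protein assembly, with WT scores of 2.79, 2.99 and 2.70. These are the 3 highest scores of ABCC1 RNA, and no ABCC1 connection at these elements was listed in R320*. Other RNAs met the same elements in both genotypes: besides ABCC1, the IBA57 promoter met 15 RNAs in R320* and 12 in WT, 8 of them in both, and 9 in each genotype came from chromosome 1. The wide IBA57 enhancer met 9 other RNAs in R320* and 9 in WT.

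The ABCC4 contacts lay at ANO6 on chromosome 12, a phospholipid scramblase gene, at a promoter (45214653 to 45217215, WT score 2.29) and 2 enhancers (1.71 and 1.58). Here most other RNAs were not listed in R320* either. The promoter met 0 other RNAs in R320* and 4 in WT (ANO6, ARID2, SCAF11 and SLC38A1), and the enhancers met 1 and 0 in R320* and 6 and 4 in WT. Of those 4 RNAs, ANO6, ARID2 and SCAF11 had 0 connections anywhere in R320*, against 20, 42 and 23 in WT, and SLC38A1 had 31 in R320* and 48 in WT. The part of this wider difference in the WT-only ABCC4 contacts was not tested. ABCC5 RNA met a wide enhancer nearest PVT1, the noncoding gene beside MYC, with 1.76 in R320*; this element met 3 other RNAs in R320* and 3 in WT.

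**Figure D5:**
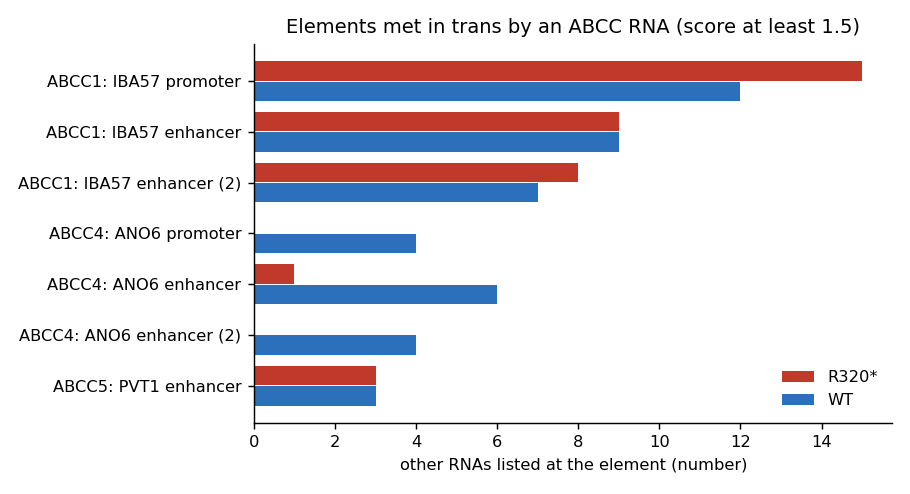
Number of RNAs other than the ABCC RNA (horizontal axis) listed in R320* (red) and WT (blue) at each element that an ABCC RNA met on another chromosome with a score of at least 1.5. The IBA57 elements met 8 to 15 other RNAs in R320* and 7 to 12 in WT, and the ANO6 elements 0 or 1 in R320* and 4 to 6 in WT.

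Seen from the DNA side, the elements nearest the ABCC genes met few RNAs besides their own. The 7 elements nearest ABCC4 met only ABCC4 and MBNL2 RNA, in both genotypes. The 4 nearest ABCC1 met ABCC1 RNA alone in WT, and in R320* also EXOC4 (2.02) and FBXO38 (1.66), RNAs of other chromosomes that met an inner enhancer (16032925 to 16033375). The 4 nearest ABCC5 met ABCC5 and YEATS2 RNA in WT, and in R320* also IGF2BP2, PLD1, TBL1XR1 and VPS8, all of chromosome 3 and each at 1 element. Of the connections of these elements, 60.0% at ABCC1 (3 of 5), 87.5% at ABCC4 (7 of 8) and 50% at ABCC5 (4 of 8) were in both genotypes. The share over all RNAs was 45.2% for all connections and 80.5% for those under 100 kb from the RNA's gene. The ABCC RNA itself, described above, held 3 of the 5 at ABCC1, 6 of the 8 at ABCC4 and 2 of the 8 at ABCC5. On these elements the ABCC RNA had the highest score of all RNAs wherever it was listed, in each genotype. At most of these it was the only RNA listed and so was the highest by necessity. Another RNA was listed beside it only at an ABCC4 enhancer (95357439 to 95358159) and at the ABCC5 promoter and inner enhancer named above.

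Of 45 other ABC transporter genes, ABCB10 was the only one listed as an RNA. This mitochondrial transporter gene of haem-making cells had 41 connections in R320* and 0 in WT, all on chromosome 1, with a highest score of 3.72. Its RNA was thus outside the 81.0% of all 2637 RNAs that were listed in both genotypes. As contacted elements, 31 of the 45 genes were listed, 16 with more connections in R320*, 13 with fewer and 2 with the same number, for 131 connections in R320* and 122 in WT. Over all 15343 genes met as elements, 41.8% had more connections in R320* and 34.7% fewer. Of 25 genes of glutathione and redox metabolism, which supplies the conjugates that ABCC1 exports, 3 were listed as RNAs. As contacted elements 18 were listed, 7 with more connections in R320*, 6 with fewer and 5 with the same number, for 126 connections in R320* and 120 in WT. NFE2L2, the oxidative stress regulator, had 59 connections in R320* and 53 in WT. SLC7A11, the cystine importer, had 52 in R320* and 84 in WT, of which 3 in R320* and 12 in WT were trans. TXNRD1, thioredoxin reductase, had 37 in R320* and 40 in WT, with a median score difference of 0.127 (SD 0.162, 33 connections).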

How the data were processed

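Contacts of RNAs with enhancers and promoters were measured by GRID-seq in 4 K562 libraries, 2 per genotype, grouped by the titles of the labels. The submitters' processing notes name cutadapt 1.12, BWA, bedtools and the build hg38. How libraries were combined, and from what the score was computed, was not stated in the labels or the file header. The authors deposited 1 score per connection and genotype, and a difference column that equalled R320* minus WT within 2e-05 in every row. With no score per library no test was possible, and the planned numbers, shares and differences are given without one. The members and gene lists were chosen with earlier results of these data known.

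Scores of 0 were read as not listed. Gene positions came from RefSeq (GRCh38.p14, the coordinates of hg38) for 2497 of 2637 RNAs, 70 of these symbols through an older one. Distance ran from the nearest gene end to the element, whose starts are printed counting from 1. Intervals are exact binomial ones (95%); that of a log2 ratio comes from the R320* part of the summed numbers. Counts and merging were tested on simulated data. Python 3.11.15, pandas 2.3.3 and scipy 1.17.1 were used. Named connections were the local ones, the 3 highest by mean score, the 2 largest differences in each direction, the 2 highest in 1 genotype only and the farthest; others named were chosen after their values were seen. The alternatives were a minimum score of 1.5, the first or second run of elements alone, same-chromosome connections alone, merging within 1 Mb, centring, and other distance, threshold and overlap rules. The runs follow the order of the deposited table, not element width, and both hold narrow and wide elements.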

Additional observations from a re-analysis of the deposited data

How the results depend on the processing

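Of 74 alternative values computed for 29 results, 57 stayed close to the main value and 17 did not. Close means within 1.5 times for a count, and within the 95% interval of the main value for the others. With connections merged within 1 Mb, the numbers of ABCC5 became 2 and 1 (log2 ratio 1.00, 50% in both), the share in both of ABCC4 became 37.5%, and the median difference of ABCC1 became -0.275 over 2 groups. The share of ABCC4 in both was 43.5% with the first and 77.3% with the second run of elements. Between midpoints, the median distance of ABCC5 was 332 kb in R320* and 339 kb in WT. With elements listed in both genotypes, the overlap of ABCC5 and YEATS2 was 47.2%, against 68.3%. Genes with at least 2-fold more connections numbered 42 with a minimum of 10 and 72 with none, against 8; with fewer, 18 and 34, against 8. At 0.5 unit, 1848 connections of the table were higher and 1077 lower in R320*, and of the ABCC connections 1 and 2. The cause of these shifts was not tested, beyond the smaller numbers that merging and splitting leave. The direction of the median difference stayed the same for ABCC4 (0.0471 to 0.154) and ABCC5 (0.0908 to 0.208) in every alternative run. For ABCC1 it was also negative after centring (-0.0282) and with the second run of elements (-0.00609). No paired analysis was possible because the table gives 1 score per genotype and no library number; leaving out each library was not run for the same reason. Depth is unknown, so how far it limits the lists cannot be given.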
